A study of Mus musculus with 9 samples.

Results

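The Hox genes were followed in RNA from rat ulcer skin. Members were all named features of the deposited expression table whose gene name is Hoxa, Hoxb, Hoxc or Hoxd with a number and nothing after it, and 37 of 30560 features met this rule. They fell into 10 Hoxa, 9 Hoxb, 9 Hoxc and 9 Hoxd genes. The 9 libraries came from 3 groups of 3 biological replicates, all sampled on day 21. The non-diabetic group (sham) carried an ulcer and received saline, the diabetic group (control) carried a diabetic ulcer and received saline, and the PRP group carried a diabetic ulcer and received platelet-rich plasma, a plasma fraction with concentrated platelets. Each wound was injected with 0.5 ml on days 1, 7, 14 and 21, so the last injection fell on the day of sampling, and all wounds were dressed with Vaseline gauze. The way diabetes was induced, the strain, the age of the animals and the body site of the ulcers are not stated in the labels. No skin of a known body site was among the libraries.

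Hox genes encode homeodomain transcription factors and lie in 4 clusters. Within a cluster the genes are numbered from the 3′ end, and genes with the same number in different clusters are paralogues. Low numbers are expressed from the hindbrain and neck backwards, and higher numbers start progressively nearer to the tail and, in limbs, nearer to the fingers and toes. Adult dermal fibroblasts keep much of this code, so the Hox profile of skin carries a record of body position. Hoxc13 is a known exception, since it is active in hair follicles and nails at any body level, where it controls hair keratin genes.

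In all 9 libraries the Hox profile was highest in the middle of the numbering and nearly empty at its high end, with Hoxc13 as the exception. No Hox gene passed the test in any comparison of groups. The nearest were Hoxa11 and Hoxc10, with levels in the 3 non-diabetic libraries above those in all 3 diabetic libraries.

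The promoters of Hoxa11 and Hoxa5 are shown because these genes of a single cluster have levels that lean opposite ways between diabetic and non-diabetic ulcers. The sequences are the 250 bases before the mouse start site in RefSeq (GRCm38.p6), since no rat sequence was used, and 21 of the 37 members matched a mouse entry. Both windows lie on the minus strand, and capitals mark a CCAAT box read on the opposite strand.
Hoxa11, chr6:52245811-52246060: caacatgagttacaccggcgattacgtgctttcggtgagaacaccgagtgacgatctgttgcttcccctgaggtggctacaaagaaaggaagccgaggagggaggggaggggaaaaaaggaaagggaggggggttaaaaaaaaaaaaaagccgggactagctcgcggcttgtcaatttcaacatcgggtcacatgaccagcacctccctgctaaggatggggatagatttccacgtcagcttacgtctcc
Hoxa5, chr6:52204588-52204837: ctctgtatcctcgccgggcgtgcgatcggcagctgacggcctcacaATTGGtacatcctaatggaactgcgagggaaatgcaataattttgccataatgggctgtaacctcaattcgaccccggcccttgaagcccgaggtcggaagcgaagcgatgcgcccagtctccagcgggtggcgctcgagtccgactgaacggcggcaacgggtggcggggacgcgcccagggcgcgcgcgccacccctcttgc
C and G made up 52.0% of the Hoxa11 window and 63.6% of the Hoxa5 window. Both strands were searched for the TATA box TATAAA (held by 12.4% of 32851 mouse promoter windows), the CCAAT box (33.8%), the GC box GGGCGG (32.7%), the core TTTATG bound by posterior Hox proteins (10.8%) and the core TGATNNAT bound by Pbx with Hox proteins (7.68%). The CCAAT box was found once in the Hoxa5 window, 204 bases before the start, and none of the letters searched was in the Hoxa11 window.

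Expression was given by the authors as FPKM, fragment numbers normalised for gene length and for library depth, which can be compared between genes. The FPKM of a library summed to between 564078 and 728332. Between 19591 and 21814 features were above 0 in a library. Depth relative to the mean, taken from counts and FPKM of 109 lncRNA genes, ran from 0.839 to 1.116, and total read numbers were not at hand. Labelled as ulcer skin, every library held fibroblast and keratinocyte markers above 0. The mean log2 level of 10 fibroblast markers was 9.04 to 9.43 in non-diabetic, 6.82 to 8.48 in diabetic and 8.31 to 9.12 in PRP libraries. The epithelial level, over keratinocyte and hair follicle markers, was 4.19, 6.47 and 1.56 in non-diabetic replicates 1 to 3, 5.36, 7.72 and 7.40 in diabetic and 6.82, 6.47 and 5.54 in PRP replicates, so non-diabetic replicates 1 and 3 stood apart at the low end.

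Of the 37 members, 28 were above 0 in every library, 16 reached 0.5 FPKM in all 9 libraries, and 10 stayed under 0.5 FPKM in all 9. Between 18 and 25 members reached 0.5 FPKM in a single library. The filter for testing, at least 0.5 FPKM in at least 3 libraries, was passed by 24 members.

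By paralogue number, the summed FPKM averaged 0.536 for number 2, 2.03 for 3 and 3.08 for 4. It was 5.18 for number 5, 6.43 for 6 and 5.71 for 7. The sum was highest at number 8, with a mean of 16.3 and a range of 12.4 to 21.4, and stood at 10.9 for number 9. It was 3.08 for number 10, 0.809 for 11 and 0.0655 for 12. Number 13 averaged 14.8 but ran from 0.142 to 45.2, nearly all of it Hoxc13. With Hoxc13 left out, the sum peaked at number 8 in each library and was lower at each step to numbers 9, 10 and 11, as the line plot of paralogue sums shows. The peak was largely a single gene, since Hoxd8 averaged 12.2 FPKM, Hoxc8 3.87 and Hoxb8 0.226.

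**Figure D1:**
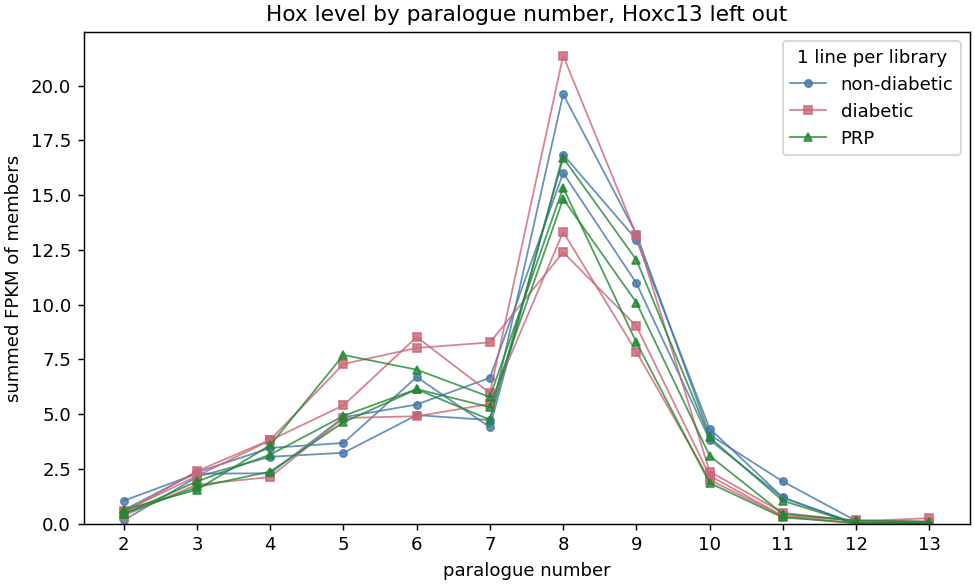
Summed FPKM of Hox members (y axis) by paralogue number (x axis, from 2 to 13), 1 line per library, coloured by group, with Hoxc13 left out. All 9 lines peak at paralogue number 8, between 12.4 and 21.4 FPKM and largely from Hoxd8, and lie close to 0 at numbers 12 and 13.

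The Hoxa cluster lies on rat chromosome 4 from 81255883 to 81361091 in the table's own coordinates, for which no source names the rat build. Its most abundant member was Hoxa9, a gene of the trunk and proximal limb. Hoxa9 stood at 4.31, 4.46 and 3.97 FPKM in non-diabetic, 4.37, 4.68 and 3.48 in diabetic and 2.31, 4.16 and 3.90 in PRP libraries. The 3 groups overlapped for this gene, and PRP replicate 1 was the lowest library. Hoxa5, which in the mouse patterns the cervical and upper thoracic skeleton and the lung, was the second. It stood at 2.42, 3.87 and 1.75 FPKM in non-diabetic, 4.55, 5.36 and 3.91 in diabetic and 6.48, 3.83 and 3.24 in PRP libraries. All diabetic libraries were above all non-diabetic libraries, with the nearest pair at 3.91 and 3.87 FPKM, and the PRP libraries overlapped both. Hoxa6 and Hoxa7 followed, at 1.63 to 3.54 and 0.809 to 2.33 FPKM. Hoxa2, Hoxa3 and Hoxa4, nearer the head end of the code, lay between 0.154 and 1.05 FPKM, and Hoxa13, a gene of the digits and genital tubercle, was at most 0.0911. The gene models of Hoxa4, Hoxa5 and Hoxa6 lie inside that of Hoxa3 on the same strand, so their reads could be split between them.

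The Hoxb cluster on chromosome 10, from 81160498 to 81332836, was the most even over libraries, with a sum of 8.22 to 12.6 FPKM. Hoxb7, a gene of the thoracic trunk, led it at 3.60, 5.22 and 3.80 FPKM in non-diabetic, 4.06, 5.95 and 4.47 in diabetic and 4.59, 3.35 and 3.64 in PRP libraries, with all groups overlapping. Hoxb9, which with its paralogues patterns the rib cage, was next. It stood at 1.09, 0.656 and 1.72 FPKM in non-diabetic, 1.17, 0.644 and 1.81 in diabetic and 1.90, 1.89 and 2.65 in PRP libraries. Each PRP library was above all 6 saline libraries. Hoxb13, the only other high-numbered member of the cluster and known from the tail bud and prostate, was at 0 in 5 libraries and at most 0.195 FPKM, and Hoxb1, a hindbrain gene, was above 0 in 1 library.

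The Hoxd cluster on chromosome 3, from 59570646 to 59667769, held the most abundant member other than Hoxc13. Hoxd8, a gene of the trunk (59607996 to 59610361), stood at 12.9, 12.2 and 17.3 FPKM in non-diabetic, 16.2, 8.03 and 8.95 in diabetic and 10.9, 10.4 and 12.7 in PRP libraries. The groups overlapped, and diabetic replicate 1 was close to the non-diabetic libraries. Hoxd9, its neighbour, stood at 4.22, 3.93 and 4.90 FPKM in non-diabetic, 5.18, 2.44 and 1.62 in diabetic and 2.22, 3.09 and 3.19 in PRP libraries. Diabetic replicate 1 was again the highest of its group, and all PRP libraries lay below all non-diabetic libraries. Hoxd10, a gene of the lumbar level and hindlimb, stood at 0.741, 0.855 and 0.628 FPKM in non-diabetic, 1.14, 0.677 and 0.339 in diabetic and 0.689, 1.14 and 0.788 in PRP libraries, with no order between groups. Hoxd11, Hoxd12 and Hoxd13, which shape the forearm and digits, were near the end of detection, at no more than 0.240, 0.113 and 0.0276 FPKM.

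The Hoxc cluster on chromosome 7, from 134058640 to 134173133, varied most, with a sum of 12.9 to 57.3 FPKM. Hoxc8, a gene of the mid-thoracic trunk (134127913 to 134130503), stood at 3.75, 3.44 and 2.15 FPKM in non-diabetic, 4.79, 4.04 and 4.15 in diabetic and 4.26, 4.24 and 4.03 in PRP libraries. Every diabetic and PRP library was above every non-diabetic library. Hoxc10, a lumbosacral and hindlimb gene (134103643 to 134108966), ran the other way. It stood at 3.60, 2.98 and 3.43 FPKM in non-diabetic, 1.24, 1.52 and 1.67 in diabetic and 1.17, 1.96 and 3.15 in PRP libraries. The lowest non-diabetic library was above the highest diabetic library, and PRP replicate 3 was within the non-diabetic range.

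**Figure D2:**
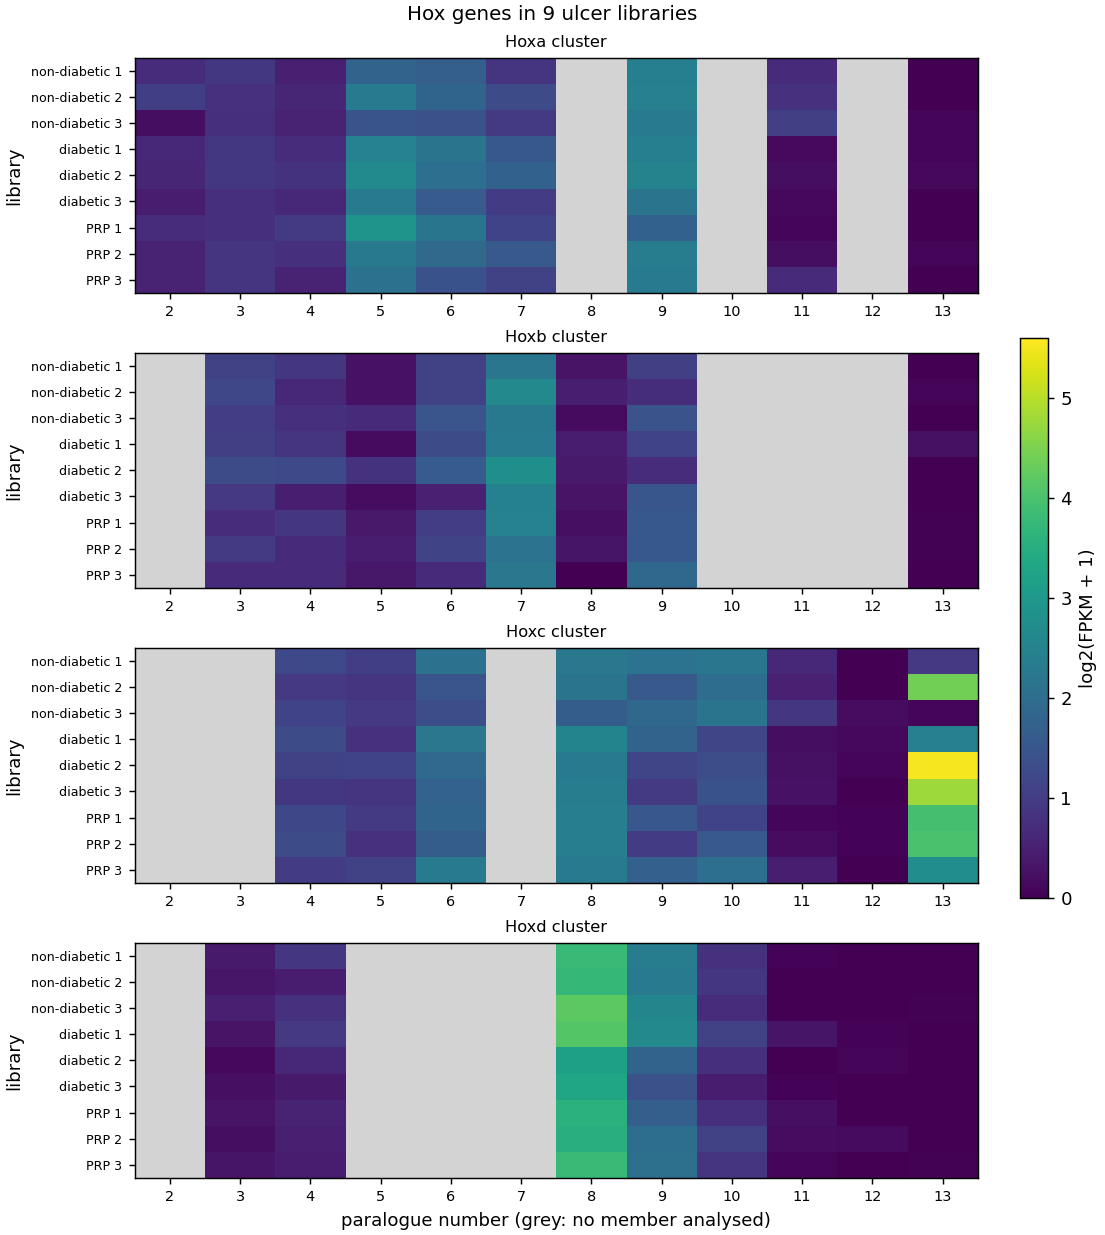
Level of each Hox member as log2(FPKM + 1) (colour), with paralogue number (2 to 13) on the x axis and the 9 libraries on the y axis, 1 panel per cluster; grey marks numbers with no member analysed. Hoxd8 is bright in every library at 8.03 to 17.3 FPKM, Hoxc13 is bright in some libraries and dark in others, and numbers 11 to 13 are otherwise dark.

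The most posterior member at 0.5 FPKM or more was number 9 of Hoxb in all 9 libraries and number 10 of Hoxd in 8, with number 9 in diabetic replicate 3. In Hoxc it was Hoxc13 in every library but non-diabetic replicate 3, where it was number 11. The Hoxa cluster differed between groups, since the last such member was number 11 in the 3 non-diabetic libraries and in PRP replicate 3, and number 9 in the other 5 libraries. This step is only whether Hoxa11 reached 0.5 FPKM, since no Hoxa gene of number 10 was analysed. An unnamed feature between Hoxa9 and Hoxa11 was above 0.5 FPKM in all 9 libraries. At a threshold of 0.1 FPKM the median over libraries was number 11 in Hoxa.

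The likeness of whole profiles was described by Spearman's rho over the 37 members, which share each library's depth and are not independent replicates. Without Hoxc13, rho was 0.906 to 0.967 in the 9 pairs of libraries of the same group, with a median of 0.942. It was 0.859 to 0.974 in the 27 pairs from different groups, with a median of 0.927. With Hoxc13 the lowest values were 0.808 and 0.768. No set of libraries from a known other body site was at hand to set a reference for these values.

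The mean paralogue number weighted by FPKM was 7.45, 8.83 and 7.65 in non-diabetic, 7.57, 9.60 and 9.34 in diabetic and 8.20, 8.46 and 7.95 in PRP libraries. Hoxc13 set most of this spread. Without it the values were 7.37, 7.28 and 7.64 in non-diabetic, 7.20, 6.82 and 7.10 in diabetic and 6.87, 7.14 and 7.42 in PRP libraries. Non-diabetic libraries then all lay above diabetic libraries, by less than 1 paralogue number, and the PRP libraries spanned both.

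Shares of the Hox FPKM without Hoxc13 showed where this difference lay. Numbers 10 to 13 held 9.71%, 9.21% and 10.8% in non-diabetic, 5.01%, 5.06% and 5.40% in diabetic and 4.20%, 7.36% and 9.25% in PRP libraries. Numbers 4 to 8 held 61.5%, 64.1% and 62.0% in non-diabetic, 69.5%, 72.2% and 70.7% in diabetic and 74.9%, 66.9% and 63.8% in PRP libraries. Both shares separated the non-diabetic from the diabetic libraries, and PRP replicates ran from the diabetic range or past it (replicate 1) to the non-diabetic range (replicate 3). Numbers 1 to 3 held 4.12% to 6.81% and overlapped between groups. These shares are descriptions with no test, and were looked at with the values of single genes known.

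The comparison of diabetic with non-diabetic ulcers asks what differed with diabetes in wounds that received saline. Of the 24 tested members 0 were called at an adjusted p under 0.05 (limma-trend, Benjamini-Hochberg over all features), beside 8.95% of the 15600 tested features (1.79% higher and 7.16% lower in diabetic ulcers). At an unadjusted p under 0.05 there were 3 members, Hoxa5 higher and Hoxa11 and Hoxc10 lower in diabetic ulcers, against 34.7% of all features. Groups did not overlap for 5 tested members, with Hoxa4, Hoxa5 and Hoxc8 higher and Hoxa11 and Hoxc10 lower in diabetic ulcers, against 34.1% of all features (14.4% higher and 19.6% lower). The Hox share was thus below the table's background by each count. Of the 24 differences 12 were positive and 12 negative, with a median log2 difference of -0.0031 against 0.0446 over all tested features.

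Hoxa11 (81342528 to 81346232 on chromosome 4), which patterns the forearm and shank and the uterus in the mouse, stood at 0.589, 0.752 and 1.08 FPKM in non-diabetic, 0.106, 0.160 and 0.0854 in diabetic and 0.0490, 0.160 and 0.582 in PRP libraries. The groups of saline-treated ulcers did not overlap, and PRP replicate 3 was just under the non-diabetic range. Means were 0.808 ± 0.252 FPKM in non-diabetic and 0.117 ± 0.0384 in diabetic ulcers (SD, n = 3 each). The log2 difference was -0.69 (SE 0.18, limma adjusted p = 0.0514), on the log2(FPKM + 1) scale, which understates the change of low genes. Hoxa11 passed the filter on low values only through the non-diabetic libraries and PRP replicate 3.

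Hoxc10 averaged 3.34 ± 0.324 FPKM in non-diabetic and 1.47 ± 0.216 in diabetic ulcers (SD, n = 3 each), a log2 difference of -0.81 (SE 0.23, limma adjusted p = 0.0573). Both genes passed the threshold when FPKM was rescaled to the same total in each library (TPM), with limma adjusted p of 0.0419 for Hoxa11 and 0.0469 for Hoxc10, and when libraries were weighted, at 0.0481 and 0.0203. In the same fits 10.2% and 35.9% of all features were called. Outside the fit without non-diabetic replicates 1 and 3, limma adjusted p ran from 0.0419 to 0.438 for Hoxa11 and 0.0203 to 0.426 for Hoxc10. Both differences stayed negative wherever the gene was tested. Since the saline groups did not overlap for either gene, leaving libraries out could not change the sign. When non-diabetic replicates 1 and 3 were dropped together, the difference of Hoxc10 was -0.69 and Hoxa11 no longer passed the filter.

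Hoxc11 (134091552 to 134094738), the next member after Hoxc10 and known from the lumbosacral region and hindlimb, did not pass the filter and was looked at after its values were seen. It stood at 0.567, 0.433 and 0.845 FPKM in non-diabetic, 0.153, 0.192 and 0.215 in diabetic and 0.0701, 0.145 and 0.395 in PRP libraries. All non-diabetic libraries were above the other 6. In the fit with no filter the log2 difference between diabetic and non-diabetic ulcers was -0.44 (SE 0.12, limma adjusted p = 0.0836). The low-numbered Hoxd3, chosen in the same way, also lay lower in all diabetic (0.0830 to 0.236 FPKM) than in all non-diabetic libraries (0.270 to 0.409), so the direction was not limited to high numbers. A predicted gene on the opposite strand, AABR07073021.1, is separated from the 5′ end of Hoxa11 by 183 bases. It was outside the lists and chosen after the values were seen, so it is no separate support. It stood at 0.310, 0.822 and 0.405 FPKM in non-diabetic, 0, 0.0528 and 0 in diabetic and 0, 0.0470 and 0.211 in PRP libraries. No source says whether the authors' counting used strand, so reads of the 2 genes may not be told apart where transcripts run beyond the annotated ends.

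**Figure D3:**
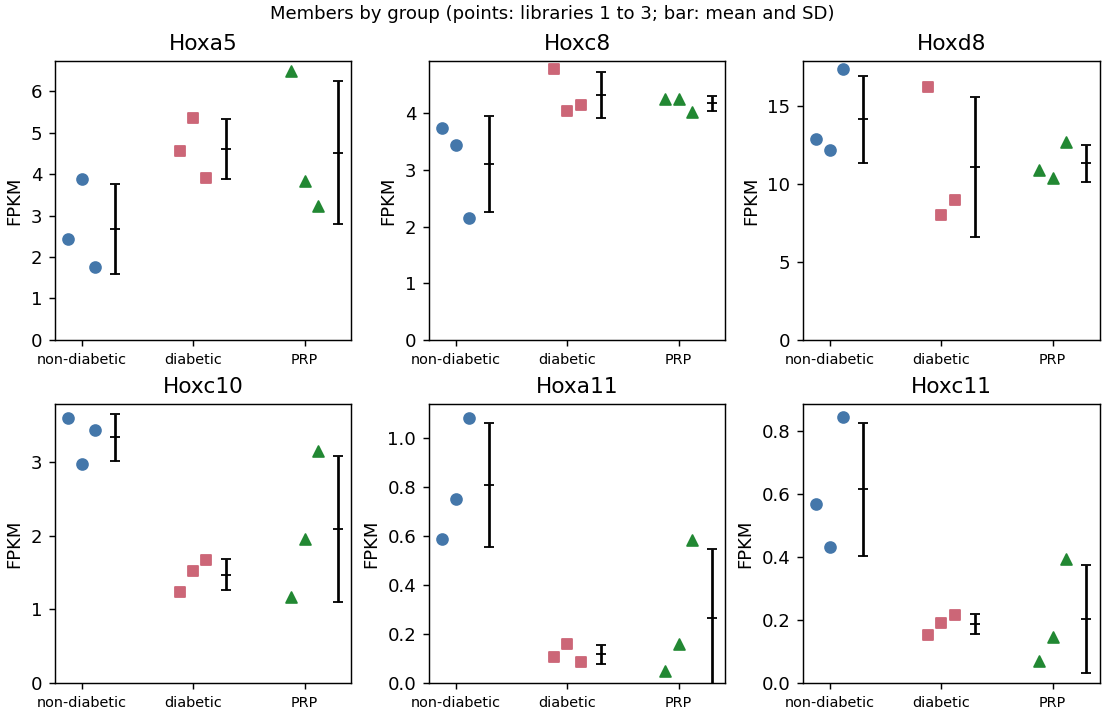
FPKM (y axis, from 0) of 6 members in each library by group (points, replicates 1 to 3 from left to right), with the group mean and SD as a bar; the SD bar of Hoxa11 in PRP ends at the axis. Hoxc10, Hoxa11 and Hoxc11 have all non-diabetic points above all diabetic points, Hoxa5 and Hoxc8 have them below, and Hoxd8 overlaps.

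Hoxa5 averaged 2.68 ± 1.08 FPKM in non-diabetic and 4.61 ± 0.723 in diabetic ulcers (SD, n = 3 each), a log2 difference of 0.64 (SE 0.27, limma adjusted p = 0.136). Hoxc8 averaged 3.11 ± 0.848 and 4.32 ± 0.405 FPKM (SD, n = 3 each), a log2 difference of 0.39 (SE 0.18, limma adjusted p = 0.154). Both differences missed the threshold under every alternative for this comparison. With the epithelial level as a covariate they were 0.20 and 0.22.

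Ratios between members of the same cluster set high against lower numbers within a library. The ratio of Hoxc10 to Hoxc8 was 0.962, 0.867 and 1.60 in non-diabetic, 0.259, 0.375 and 0.402 in diabetic and 0.275, 0.462 and 0.783 in PRP libraries. All non-diabetic ratios were above the other 6. The ratio of Hoxa11 to Hoxa9 was 0.137, 0.169 and 0.273 in non-diabetic, 0.0243, 0.0342 and 0.0245 in diabetic and 0.0212, 0.0384 and 0.149 in PRP libraries. PRP replicate 3 fell within the non-diabetic range for Hoxa11 to Hoxa9 and below it for Hoxc10 to Hoxc8. The ratios were chosen after the values were seen and are given with no test.

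Set against paralogue number, the log2 differences between diabetic and non-diabetic ulcers were positive for 10 of 16 tested members of numbers 1 to 8, with a median of 0.0658. Of the 7 tested members of numbers 9 to 11, 1 was positive, with a median of -0.48. Hoxa9, Hoxb9 and Hoxd10 among them had small differences of -0.025, 0.032 and -0.043. Hoxa11, also among them, passed the filter only through the non-diabetic libraries and PRP replicate 3, so its direction adds no support. The count and median above and the rho below include Hoxa11, so they are partly set by that filter. Spearman's rho between paralogue number and difference was -0.375 over these 23 members, as a description across genes of the same 6 libraries, and -0.209 with Hoxc13 added. Hoxc9, a trunk gene, and Hoxd9 had differences of -0.54 (SE 0.28, limma adjusted p = 0.200) and -0.48 (SE 0.29, limma adjusted p = 0.259). Without diabetic replicate 1, the library with the highest Hoxd8 and Hoxd9 of its group, Hoxd8 and Hoxd9 were called lower in diabetic ulcers, in a fit where 16.8% of all features were called.

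**Figure D4:**
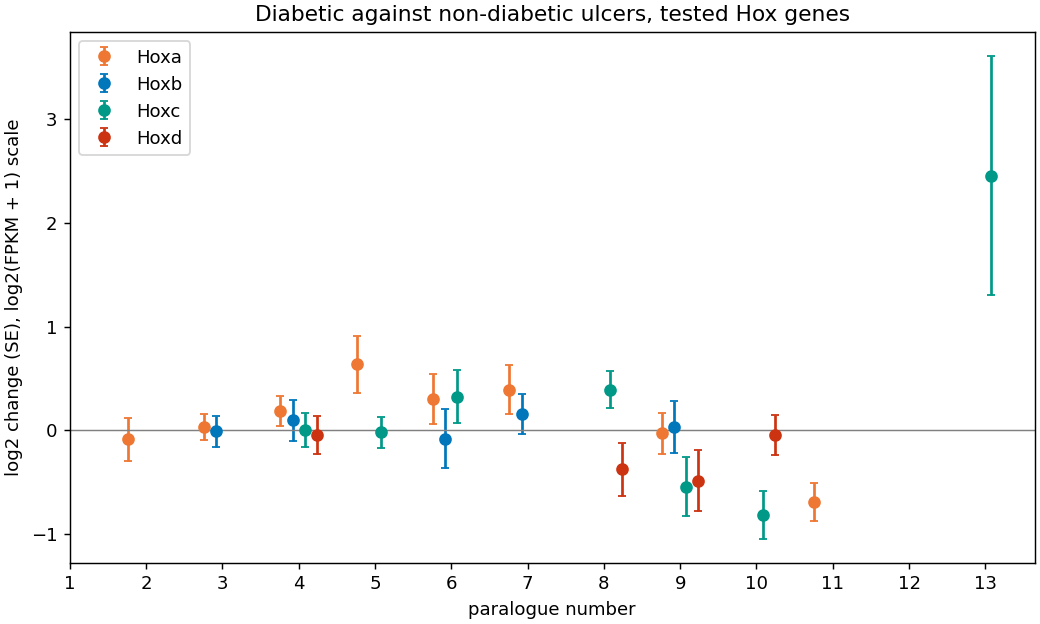
Log2 difference between diabetic and non-diabetic ulcers with its SE (y axis, log2(FPKM + 1) scale) for the 24 tested members by paralogue number (x axis, offset by cluster, coloured by cluster). Hoxc10 and Hoxa11 are lowest at -0.81 and -0.69, and Hoxc13 is highest at 2.45 with an SE of 1.15.

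Several tissue markers moved with the same comparison. Among the 10 fibroblast markers 2 were called lower in diabetic ulcers, with a median log2 difference of -1.38 over the list, none of the 10 was at 0 in any library, and their summed FPKM was 17852 to 22924 in non-diabetic, 3160 to 16746 in diabetic and 10540 to 24211 in PRP libraries. Lower marker and Hox levels in such bulk tissue may come from fewer cells of a type or from less RNA per cell, which cannot be told apart. Macrophage markers were called lower for 4 of 7 and endothelial markers for 1 of 7, with medians of -1.68 and -1.01, beside 7.16% of all features called lower. Markers of basal keratinocytes (5 in the table), cornified keratinocytes (5), hair follicle (15), skeletal muscle (7), Schwann cells (5) and adipocytes (4 of 5 tested) had 0 called and medians of 2.08, 2.70, 3.54, 2.43, 0.52 and 1.12. The part of these shifts in the Hox differences was not tested beyond the fits with the epithelial level. There Hoxc10 stood at -0.70 and Hoxa11 at -0.51 (limma adjusted p = 0.426 and 0.438), and 0 of 15600 features were called.

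Hoxc13 (134058640 to 134064800) was the most variable member. It stood at 0.891, 20.4 and 0.0481 FPKM in non-diabetic, 4.46, 45.1 and 26.6 in diabetic and 14.5, 14.98 and 5.66 in PRP libraries. The groups overlapped, and the group means were 7.11 ± 11.5, 25.4 ± 20.4 and 11.7 ± 5.26 FPKM (SD, n = 3 each). The log2 difference between diabetic and non-diabetic ulcers was 2.45 (SE 1.15, limma adjusted p = 0.163). It was 3.76 without non-diabetic replicate 2 (limma adjusted p = 0.0222, in a fit that called 22.4% of all features), -0.16 without non-diabetic replicates 1 and 3 and -0.18 with the epithelial level as a covariate, and its adjusted p ran from 0.0222 to 0.980 over the alternatives.

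The hair follicle list held 15 genes, for follicle keratins and transcription factors. Its level, as mean log2(FPKM + 1), was 2.90, 6.33 and 0.58 in non-diabetic, 4.22, 7.72 and 7.12 in diabetic and 6.32, 5.36 and 4.39 in PRP libraries. No gene of this list was at 0 in any library. Ordered by this level, the libraries took the same order as by Hoxc13 apart from PRP replicates 1 and 2. Foxn1, a hair keratinocyte regulator downstream of Hoxc13 in the mouse and chosen after its values were seen, was lowest in non-diabetic replicate 3 at 0.0343 FPKM and highest in diabetic replicate 2 at 11.1. The other Hox genes of numbers 11 to 13 reached 1.08 FPKM at most, with Hoxa11 in non-diabetic replicate 3.

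**Figure D5:**
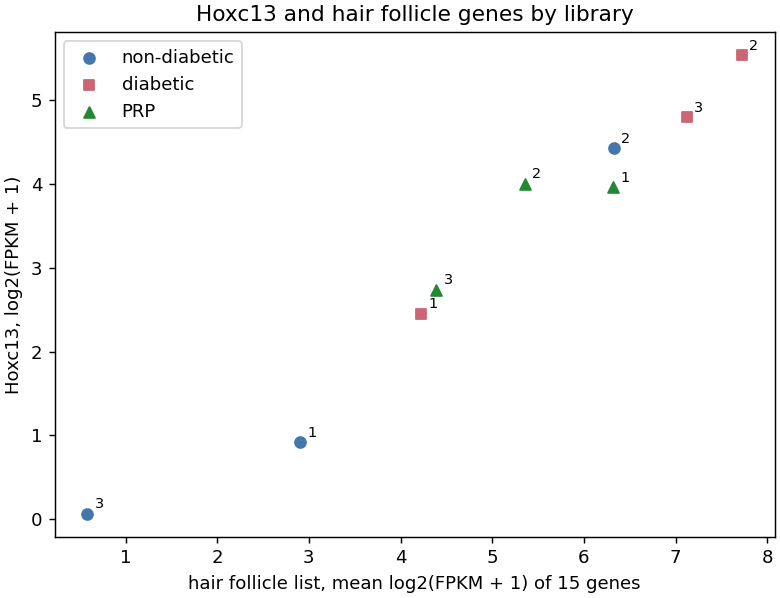
Hoxc13 as log2(FPKM + 1) (y axis) against the mean log2(FPKM + 1) of 15 hair follicle genes (x axis), 1 point per library, coloured by group and labelled with the replicate number. Both run from their lowest value in non-diabetic replicate 3 (0.0481 FPKM of Hoxc13) to their highest in diabetic replicate 2 (45.1 FPKM).

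The comparison of PRP-treated with saline-treated diabetic ulcers asks what the plasma changed. Of the 24 members 0 were called, beside 0% of all tested features, and 0 members had an unadjusted p under 0.05, against 6.54% of all features (1021). Hoxb9 was the only member whose groups did not overlap, against 11.3% of features (5.79% higher and 5.55% lower in PRP ulcers). It averaged 1.21 ± 0.586 FPKM in diabetic and 2.15 ± 0.436 in PRP ulcers (SD, n = 3 each), a log2 difference of 0.54 (SE 0.25, limma adjusted p = 0.713). The differences of Hoxb3, a gene of the hindbrain and neck, Hoxc10 and Hoxa11 were -0.30 (SE 0.15), 0.28 (SE 0.23) and 0.16 (SE 0.18). Hoxc10 averaged 2.09 ± 0.998 and Hoxa11 0.264 ± 0.282 FPKM in PRP ulcers (SD, n = 3 each), with replicate 3 the highest of both. PRP replicate 3 also had the highest fibroblast marker level of its group, 9.12 against 8.31 and 8.49, and the lowest hair follicle level. The median log2 difference over members was -0.0387, and -0.0632 over all features.

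The comparison of PRP-treated diabetic with non-diabetic ulcers shares its libraries with both comparisons above. In it 0 of 24 members were called, beside 0.00641% of all tested features (1 feature). The groups did not overlap for 5 members, Hoxb9 and Hoxc8 higher and Hoxa11, Hoxb3 and Hoxd9 lower in PRP ulcers, against 29.4% of features (8.92% higher and 20.4% lower). Log2 differences were 0.57 (SE 0.25, limma adjusted p = 0.246) for Hoxb9, -0.53 (SE 0.18, limma adjusted p = 0.185) for Hoxa11 and -0.54 (SE 0.23, limma adjusted p = 0.237) for Hoxc10. Hoxa11 and Hoxc10 were the 2 members at an unadjusted p under 0.05, against 20.4% of features. An F test over the 3 groups called 0 members, beside 0.00641% of features, with Hoxa11 lowest at a limma adjusted p of 0.113. Of the members 2, Hoxa11 and Hoxc10, had an unadjusted F test p under 0.05, against 26.4% of features.

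Genes that mark other positional programmes were read beside the Hox profile. Of 4 trunk and back-skin genes, all were tested and 1 was called between diabetic and non-diabetic ulcers, beside 8.95% of all features. Tbx15, a T-box factor of dorsal dermis, was well expressed at 20.4, 21.3 and 21.5 FPKM in non-diabetic, 28.9, 14.8 and 14.7 in diabetic and 15.7, 13.5 and 16.8 in PRP libraries, with diabetic replicate 1 highest. Tbx18, a T-box factor of somites and of dermal mesenchyme, fell in diabetic ulcers. It stood at 4.48, 3.58 and 5.31 FPKM in non-diabetic, 1.98, 0.831 and 1.55 in diabetic and 1.62, 1.17 and 1.67 in PRP libraries, a log2 difference of -1.17 between the saline groups (limma adjusted p = 0.0314, from 0.00747 to 0.757 over the alternatives). The call was lost under 10 of 18 alternatives, among them the epithelial covariate (adjusted p = 0.287) and fits without diabetic replicate 2 (0.0879) or 3 (0.0569), PRP replicate 1 (0.0506) or 2 (0.0561) or non-diabetic replicate 1 (0.133) or 3 (0.118). Twist2, a dermal factor, averaged 31.7, 11.5 and 20.0 FPKM in non-diabetic, diabetic and PRP ulcers (limma adjusted p = 0.130 between the saline groups), and Sim1 0.269, 1.14 and 0.812 FPKM (limma adjusted p = 0.0546).

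Of the limb genes, Tbx4 and Tbx5, which act in hindlimb and forelimb, were at most 0.0438 and 0.0879 FPKM, and Pitx1, a hindlimb factor, ran from 0.0522 to 0.975 FPKM. Of 8 listed limb genes 3 were tested and 0 called. Shox2, a factor of the proximal limb that is also active elsewhere, averaged 4.09 ± 1.29 FPKM in non-diabetic, 1.51 ± 0.575 in diabetic and 2.87 ± 0.967 in PRP ulcers (SD, n = 3 each). Its log2 difference between diabetic and non-diabetic ulcers was -1.02 (limma adjusted p = 0.0564). En1, a factor of ventral limb ectoderm and of a dermal fibroblast lineage of the back, averaged 4.66 ± 2.38, 1.53 ± 0.711 and 2.90 ± 0.922 FPKM (SD, n = 3 each), with a log2 difference of -1.10 (limma adjusted p = 0.0844). Both genes were highest in non-diabetic replicates 1 and 3 and had PRP replicate 3 as the highest of its group, as Hoxc10 did.

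Of 11 head genes, which mark the region in front of the Hox code, 3 were tested and 0 called. Lhx2, also a hair follicle stem cell factor, stood at 1.52, 9.66 and 0.569 FPKM in non-diabetic, 3.73, 14.6 and 13.6 in diabetic and 8.25, 8.47 and 7.83 in PRP libraries, lowest in the 2 libraries with the least Hoxc13. Emx2, a forebrain factor that also acts at the shoulder blade, averaged 2.06, 1.20 and 1.30 FPKM, Alx4, a craniofacial and hair follicle factor, was at most 1.77 FPKM and Dlx5 at most 0.683.

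Hox proteins act with partner proteins, and their genes are set active or silent by chromatin regulators. Of 8 tested cofactors 1 was called between diabetic and non-diabetic ulcers, beside 8.95% of all features, with a median of -0.18. Pbx3, a homeodomain partner that binds DNA together with Hox proteins, fell from 7.68 ± 1.27 to 3.88 ± 0.451 FPKM (SD, n = 3 each), by 0.82 on the log2 scale (limma adjusted p = 0.0432, from 0.0107 to 0.765 over the alternatives), and averaged 5.12 ± 1.42 in PRP ulcers. PRP replicate 3 was again the highest of its group, at 6.77 FPKM against 4.28 and 4.33. Its relative Pbx2 averaged 10.9, 7.19 and 7.19 FPKM in the non-diabetic, diabetic and PRP groups, with a limma adjusted p of 0.0601 between the saline groups. The call of Pbx3 was lost under 13 of 18 alternatives. They include the epithelial covariate (adjusted p = 0.395), the replicate block (0.0597) and fits without diabetic replicate 2 (0.0992) or 3 (0.0893), PRP replicate 1 (0.0602), 2 (0.0681) or 3 (0.0503) or non-diabetic replicate 1 (0.152) or 3 (0.145).

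Polycomb proteins keep unused Hox genes silent. All 19 listed Polycomb genes were tested and 1 was called between diabetic and non-diabetic ulcers, a share below the 8.95% of all features, with a median log2 difference of 0.0020. Cbx6, a reader of the Polycomb mark, fell from 15.1 ± 1.06 to 9.28 ± 1.25 FPKM (SD, n = 3 each), by 0.65 on the log2 scale (limma adjusted p = 0.0415, from 0.0103 to 0.757 over the alternatives), and the call was lost under 11 of 18 alternatives. They include the epithelial covariate (adjusted p = 0.332) and fits without diabetic replicate 2 (0.104) or 3 (0.0830), PRP replicate 1 (0.0615), 2 (0.0663) or 3 (0.0543) or non-diabetic replicate 1 (0.150) or 3 (0.123). Suz12, a core subunit of the complex that writes the mark, averaged 14.7, 25.4 and 18.5 FPKM in the non-diabetic, diabetic and PRP groups and Phc2 19.8, 12.3 and 12.7 FPKM, with limma adjusted p of 0.0802 and 0.0674. Of 12 listed activators of Hox genes, chromatin proteins together with the Cdx transcription factors, 8 were tested and 0 called, with a median of 0.042. Ash2l, a subunit of the methyltransferases that mark active genes, averaged 14.0, 14.9 and 13.2 FPKM and Kdm6a, which removes the Polycomb mark, 9.61, 12.4 and 9.91 FPKM. No member of these lists was called in either comparison with PRP.

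Genes beside or inside the clusters were read for shifts of whole regions. Of 11 tested neighbours 0 were called between diabetic and non-diabetic ulcers, with a median of 0.11. Skap2, an adaptor protein beside the Hoxa cluster, averaged 39.1, 23.3 and 30.01 FPKM in the non-diabetic, diabetic and PRP groups (limma adjusted p = 0.0626 between the saline groups), while Cbx1, beside the Hoxb cluster, averaged 29.7, 29.0 and 29.9 FPKM. Features without a gene name also lie inside clusters. The one between Hoxa9 and Hoxa11, ENSRNOG00000065199 (81331591 to 81340919), stood at 2.93, 1.95 and 2.74 FPKM in non-diabetic, 2.15, 2.09 and 1.49 in diabetic and 1.30, 1.99 and 2.85 in PRP libraries, so the groups overlapped there. Genes of the name Hoxa10 and Hoxb2 were not analysed here.

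For the question of a shared body position, the data gave 2 sets of values. With Hoxc13 left out, the peak at number 8 was seen in all 9 libraries and rested largely on Hoxd8, the highest member. The low values of Tbx4, Tbx5 and of numbers 12 and 13 other than Hoxc13 were also seen in all 9. The 8 listed limb genes had a mean log2 level of 0.388 to 0.763 in a library. For the 4 trunk genes it was 2.18 to 3.26. Not every limb gene was low, since Shox2 and En1 were expressed, but these 2 are also active outside the limb. Both had lower means in diabetic than in non-diabetic ulcers, and neither was called. The share of numbers 10 to 13, the last Hoxa member and the ratios within clusters separated non-diabetic from diabetic libraries. PRP replicate 3 reached the non-diabetic range in each but the ratio of Hoxc10 to Hoxc8. For that ratio every PRP library lay below the non-diabetic range. These measures were chosen after the values were seen and rest largely on Hoxa11 and Hoxc10, so they are no support apart from those genes, neither of which passed the test in the fit over all features.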

How the data were processed

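The deposited table, named as FPKM by the authors, held 30560 rat Ensembl identifiers for 9 libraries, of which 7162 have no gene name; mouse is the organism in the labels, and GRCm39 is named in the submitters' processing notes beside cutadapt, FastQC, HISAT2 and StringTie without versions. Libraries were made with RNeasy Plus Mini and NEBNext Ultra II Directional kits, per the labels. The authors' raw counts of 249 lncRNA genes, with their size-factor signal, log2 fold change and p-value columns, per the file headers, held no Hox gene; their counts served for relative depth. Values of a gene name were summed (28370 features), kept at 0.5 FPKM or more in at least 3 libraries (15600), transformed as log2(FPKM + 1) and fitted over 3 groups with limma-trend (limma 3.58.1, R 4.3.3; two-sided, Benjamini-Hochberg, called under 0.05). The fit was tested on simulated data. Members and lists were chosen with earlier results of these data known. Every library value is given for the 2 highest members of each cluster and for those of number 10 or above that average 0.5 FPKM; from lists, called members, the 2 highest, and every positional gene at 0.5 FPKM or more in any library. Values of a few genes are not reported here. Genes outside this rule are named as chosen after their values were seen. Alternatives covered pseudocount, filter, scaling, replicate block, libraries in the fit, epithelial covariate and sample weights.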

Additional observations from a re-analysis of the deposited data

How the results depend on the processing

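No Hox gene was called between PRP and saline diabetic ulcers under any of 18 alternatives, where the lowest limma adjusted p ran from 0.330 to 1. Between diabetic and non-diabetic ulcers 2 members were called with TPM scaling (Hoxa11, Hoxc10; 10.2% of all features were called) and 4 with sample weights (also Hoxc13 and Hoxc9; 35.9%), and leaving out single libraries gave 0 to 2. With diabetic replicate 1 out the 2 were Hoxd8 and Hoxd9, and with non-diabetic replicate 2 out the 1 was Hoxc13. Sample weights called 8 members between PRP and non-diabetic ulcers and 6 in the F test; they gave non-diabetic replicate 1 a weight of 7.495, PRP replicate 2 one of 2.96 and the others 0.396 to 0.933, and called 41.5% and 43.7% of all features in these fits. The difference of Hoxc13 turned to -0.16 with non-diabetic replicates 1 and 3 out and to -0.18 with the epithelial covariate; the cause was not tested. Over all features, calls between diabetic and non-diabetic ulcers ran from 0 to 3475 with single libraries out. They were 0 with no filter and 0 with 6 libraries. TPM scaling moved the median difference of all features from -0.0632 to -0.231 between PRP and diabetic ulcers and from -0.0379 to -0.291 between PRP and non-diabetic ulcers.

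The weighted mean paralogue number moved from 8.84 to 7.44 (log2 weights) and 7.04 (without Hoxc13, which is also the member with the highest mean) in diabetic ulcers, and from 8.20 to 7.44 and 7.14 in PRP ulcers. With single libraries out it was 7.55 to 8.24 in non-diabetic, 8.46 to 9.47 in diabetic and 8.07 to 8.33 in PRP ulcers. The summed Hox FPKM, 63.6, 79.9 and 64.5 in non-diabetic, diabetic and PRP ulcers, was 109, 128 and 90.4 with TPM scaling, and with single libraries out 57.7 to 66.7, 69.7 to 85.2 and 63.2 to 66.8. Without Hoxc13 the summed FPKM was 56.5, 54.5 and 52.8 in these groups, so the higher diabetic sum came from that gene. The most posterior member, as a median over libraries, was number 11 of Hoxa at 0.1 FPKM (9 at 0.5) and number 9 of Hoxd at 1 FPKM (10 at 0.5). The mean likeness of libraries was 0.904 by Spearman's rho and 0.858 by Pearson's r.

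No pairing by replicate number was seen: deviations of 9 same-numbered pairs correlated at -0.407 to 0.351, 3 of them over 0.1, and 1 library correlated best with its own number. With 3 libraries a group, these values cannot exclude a shared batch. With the replicate block 0 members were called in every comparison, with a lowest limma adjusted p of 0.0526 between diabetic and non-diabetic ulcers, and 1259 features were called there against 1396 without the block. Members under 0.5 FPKM rest on few fragments whose number is unknown, so differences among them were not detectable with confidence, and 3 libraries a group limit the precision of all others.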
